A study of Mus musculus with 42 samples.

Results

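The 9 genes described here carry the growth factor signal from phosphoinositide 3-kinase (PI3K) through the kinase Akt to the mTOR kinase and to the FoxO transcription factors. They are Pik3ca and Pik3r1 (PI3K subunits), Akt1 and Akt2 (kinases), Tsc1 and Tsc2 (the inhibitory complex ahead of mTOR), Mtor itself, and Foxo1 and Foxo3. They were picked by gene symbol, and each symbol was found in both deposited count tables, which makes them 9 of 18825 genes in experiment 1 and 9 of 19866 in experiment 2. All 9 passed the filter on low counts in both experiments.

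RNA bound to the GW182-family protein Tnrc6a was pulled from mouse embryonic stem cells with anti-HA beads (RNA immunoprecipitation, IP) and sequenced beside total RNA of the lysate (input). The series holds 42 libraries in 14 groups, with 3 libraries in each group. All cells, the controls included, were 129S6/SvEvTac embryonic stem cells with the GFP_5xT71BS reporter and a stably transfected FLAG-Cas9::T2A::Blasticidin gene, grown on gelatin in serum and LIF. Untagged cells carried nothing further. Tagged cells also carried HA-AVI-Tnrc6a, which puts the HA epitope on the Tnrc6a protein. Cells labelled Trim71KO were tagged and Trim71-/-, and cells labelled Ago2KO were tagged and Ago2-/-. Experiment 1 held input and IP of untagged, tagged and Trim71KO cells (6 groups), and experiment 2 held the same groups plus input and IP of Ago2KO cells (8 groups). The libraries of a group came from replicate dishes and nothing in the labels ties them to separate clones, so p-values measure the spread between these samples, which may be technical.

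PI3K is a dimer of a catalytic subunit such as p110-alpha (Pik3ca) and a regulatory subunit such as p85-alpha (Pik3r1), and it makes a membrane lipid that recruits Akt kinases. Active Akt phosphorylates Tsc2 and so releases mTOR complex 1 from inhibition by the Tsc1-Tsc2 dimer, which promotes growth and translation. Akt also phosphorylates FoxO factors, which then leave the nucleus, and in mouse embryonic stem cells the pathway is known for its part in self-renewal under LIF. Tnrc6a binds Argonaute proteins such as Ago2 on mRNAs chosen by microRNAs and recruits the enzymes that shorten poly(A) tails. Trim71 belongs to the TRIM-NHL proteins, which bind and repress mRNAs, and is made in pluripotent cells.

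Akt1 is a reported target of the miR-290 family, the main microRNA cluster of mouse embryonic stem cells. The mature 3p arms below are shown because they share the seed through which an Argonaute protein would select such a target. Each is read from 5′ to 3′ in the RefSeq table of build GRCm38.p6, with the seed (bases 2 to 8) in capitals. Of 11 listed 3p arms found in that table, 5 hold this seed, the same 5 that hold it among all 1738 mature microRNAs there.
miR-291a-3p: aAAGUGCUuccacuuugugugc
miR-294-3p: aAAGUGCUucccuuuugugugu
miR-295-3p: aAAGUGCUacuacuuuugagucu
miR-302b-3p: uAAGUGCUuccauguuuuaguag
miR-302d-3p: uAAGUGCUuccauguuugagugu
The miR-290 family members lie on the plus strand at chr7:3218968-3218989, chr7:3220691-3220712 and chr7:3220815-3220837, in the order above. The miR-302 members lie at chr3:127545275-127545297 and chr3:127545665-127545687, also on the plus strand. All 5 share bases 2 to 8 and differ in the 3′ part. Target sites in the 9 genes were not analysed here.

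Library totals spanned 12587257 to 23657840 counts in experiment 1 and 16296447 to 21026552 in experiment 2, and the 9 genes held between 123 and 3412 counts in a library of experiment 1 and between 189 and 2788 in experiment 2. Levels are given in CPM, that is, counts scaled to a common library size after TMM normalization. The bait mRNA Tnrc6a was at 22951 ± 5649 CPM in tagged IPs against 92.4 ± 2.48 in untagged IPs of experiment 1 (mean ± SD, n = 3 here and throughout), and at 18118 ± 5692 against 82.4 ± 8.06 in experiment 2. Trim71 RNA does not check the Trim71KO label, since it stood at 241 ± 21.2 CPM in tagged and 282 ± 3.18 in Trim71KO inputs of experiment 1, and at 282 ± 23.5 and 377 ± 9.61 in experiment 2. Ago2 input RNA was 353 ± 34.9 CPM in tagged and 162 ± 4.76 in Ago2KO cells, in the direction of that label. All 6 embryonic stem cell markers (Pou5f1, Nanog, Sox2, Esrrb, Zfp42, Klf4) were present in all inputs, with a summed level between 4302 and 5942 CPM. The sum was 4686 to 5063 CPM in tagged and 5380 to 5464 in Trim71KO inputs of experiment 1. In experiment 2 it was 4838 to 5012 in tagged, 5716 to 5942 in Trim71KO and 5445 to 5527 in Ago2KO inputs. Mean levels went the other way for Sox2 in Trim71KO inputs of experiment 1 (610 to 566 CPM). They did so for Esrrb in Trim71KO (812 to 797) and Klf4 in Ago2KO inputs (603 to 513) of experiment 2. The untagged IPs of experiment 1 stood apart, since in these 3 libraries the gene Bcar1 took 9.64 to 12.1% of counts, against at most 2.76% in any other IP library. Every tag-specific value of experiment 1 below is measured against those 3 libraries, and their part in it was not tested.

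Transcripts of both PI3K subunits, both Akt kinases, Tsc1 and both FoxO factors were enriched with tagged Tnrc6a in experiment 1, and those of Tsc2 and Mtor were not called. Tag-specific enrichment compares log2 IP over input between tagged and untagged cells, and it asks which RNAs come down because of the tag. In experiment 1 it was higher for 7 of the 9 genes and lower for 0 (edgeR quasi-likelihood test, threshold 0.05 after Benjamini-Hochberg adjustment across the whole table, 8 at an unadjusted p under 0.05), where 28.1% of all genes tested were called higher and 28.8% lower. In experiment 2 it was higher for 6 of 9 and lower for 0 (7 at an unadjusted p under 0.05), against 18.9% and 8.77% of all genes. The median over the 9 genes was 1.22 in experiment 1 and 0.63 in experiment 2, on the log2 scale, beside -0.10 and -0.03 over all genes. Fewer cells that hold an RNA and less RNA per cell cannot be told apart in such bulk libraries.

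**Figure D1:**
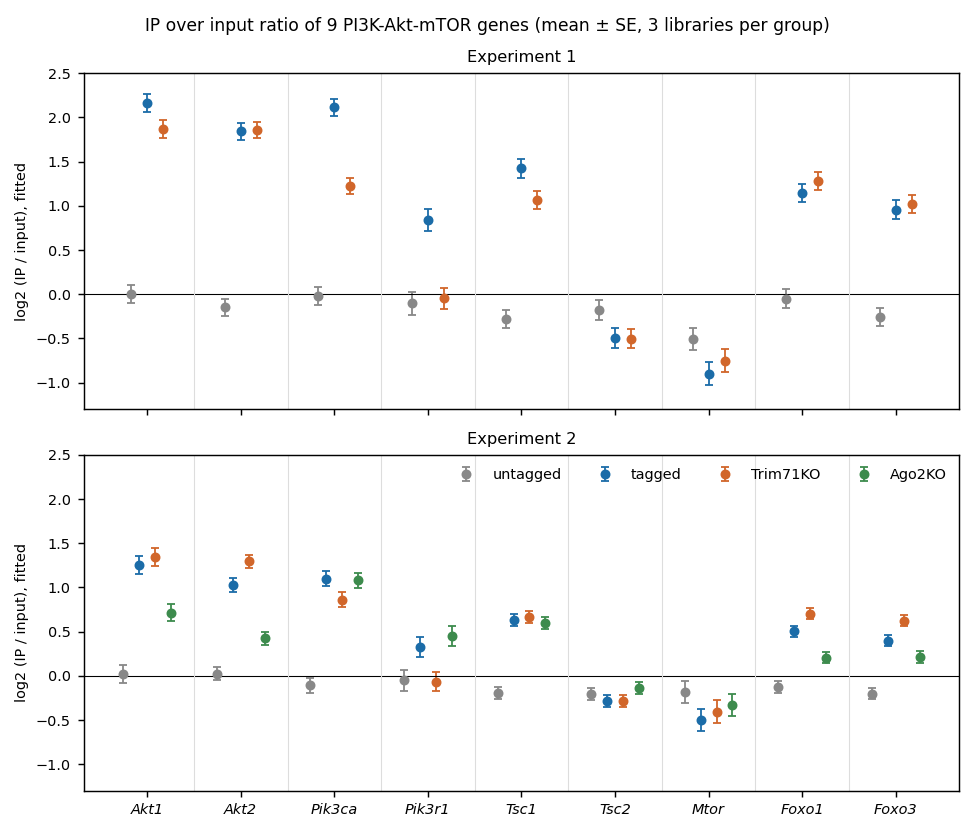
Fitted log2 ratio of IP to input (vertical axis) for the 9 genes in each genotype, as mean ± SE over 3 libraries per group, with experiment 1 above and experiment 2 below. Untagged cells lie near or below 0 for all 9 genes, tagged cells lie highest for Akt1, Pik3ca and Akt2, and Tsc2 and Mtor lie below 0 in every tagged genotype.

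Of the PI3K subunits, the catalytic Pik3ca (ENSMUSG00000027665, chr3:32397065-32466112, the RefSeq gene span in GRCm38.p6, as for the genes below) was among the most enriched. Its untagged IPs held 30.2, 29.2 and 35.2 CPM in experiment 1 and its tagged IPs 131, 126 and 132, with inputs at 32.4, 30.5 and 33.1 untagged and 32.6, 29.5 and 27.9 tagged. The IP groups did not overlap, whereas the input groups did. Fitted IP over input was 0.985-fold in untagged and 4.34-fold in tagged cells, and the enrichment was 2.14 (SE 0.14, edgeR adjusted p 2.58e-12). Experiment 2 gave 42.2, 39.4 and 43.2 CPM in untagged and 103, 93.0 and 82.4 in tagged IPs, with inputs at 42.1 to 47.3 and 41.3 to 46.5. There too only the IPs separated, and the enrichment was 1.21 (SE 0.12, edgeR adjusted p 6.60e-09).

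The regulatory subunit Pik3r1 (ENSMUSG00000041417, chr13:101680761-101768217) was also enriched in experiment 1. Its IPs of experiment 1 held 10.3, 8.66 and 10.1 CPM in untagged and 19.7, 19.0 and 20.9 in tagged cells, over untagged inputs of 9.28, 10.9 and 11.0 and tagged inputs of 12.6, 11.0 and 9.88. Its IP groups did not overlap and its enrichment was 0.94 (SE 0.18, edgeR adjusted p 0.000112). Experiment 2 had IPs of 11.8, 11.8 and 13.7 CPM untagged and 19.0, 17.1 and 19.3 tagged, over untagged inputs of 10.0, 13.8 and 14.8 and tagged inputs of 15.8, 12.4 and 16.1. The enrichment there, 0.37 (SE 0.16, edgeR adjusted p 0.0932), did not pass the threshold, and the ratios of both genotypes overlapped. Untagged input replicate 1, at the low end of its group, bears on this value: without it the enrichment was 0.53 (edgeR adjusted p 0.00759). With same-numbered IP and input libraries paired as blocks it was 0.37 (edgeR adjusted p 0.0353), and IP libraries alone, a comparison added after seeing the data, gave 0.57 (edgeR adjusted p 0.000216).

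Both Akt kinases were enriched. Akt1 (ENSMUSG00000001729, chr12:112653821-112674884) stood at 33.6, 30.8 and 35.2 CPM in untagged IPs and 137, 109 and 119 in tagged IPs of experiment 1, from untagged inputs of 31.7, 34.0 and 33.8 and tagged inputs of 26.7, 25.9 and 28.6. Every tagged IP lay above all other libraries of these groups, while the tagged inputs all lay below the untagged ones. IP over input was 1.00-fold in untagged and 4.48-fold in tagged cells, and the enrichment of 2.16 (SE 0.14, edgeR adjusted p 3.77e-12) compares with 2.14 for Pik3ca, a difference between genes that was not tested. In experiment 2 Akt1 had 40.8, 38.5 and 42.2 CPM in untagged and 104, 84.2 and 72.6 in tagged IPs, with inputs at 36.9 to 41.9 untagged and 34.0 to 38.9 tagged. The IP groups stayed separate and the enrichment was 1.24 (SE 0.14, edgeR adjusted p 7.10e-08).

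Akt2 (ENSMUSG00000004056, chr7:27591552-27640826), the isoform best known from insulin-stimulated glucose uptake was enriched in both experiments. Untagged IPs of experiment 1 gave 70.4, 62.7 and 66.1 CPM and tagged IPs 241, 224 and 257, over untagged inputs of 73.7, 75.5 and 71.8 and tagged inputs of 71.0, 58.4 and 71.7. The IPs did not overlap and the enrichment was 1.99 (SE 0.13, edgeR adjusted p 6.25e-12). Untagged IPs of experiment 2 held 69.1, 66.6 and 70.7 CPM and the tagged IPs 152, 134 and 118, with an enrichment of 1.00 (SE 0.11, edgeR adjusted p 2.40e-08). Input levels of Akt2 overlapped between untagged and tagged cells in that experiment, at 64.5 to 70.2 and 64.9 to 66.8 CPM.

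Within the Tsc complex, Tsc1 was enriched and Tsc2 did not pass the threshold. Tsc1 (ENSMUSG00000026812, chr2:28640993-28691172), the scaffold subunit, held 30.5, 36.2 and 34.1 CPM in untagged and 73.3, 73.6 and 78.1 in tagged IPs of experiment 1, although its tagged inputs, at 31.2, 23.0 and 29.7, were all below the untagged inputs at 41.6, 38.3 and 42.4. The enrichment was 1.70 (SE 0.15, edgeR adjusted p 5.60e-10). The IPs of experiment 2 held 35.2, 38.6 and 34.0 CPM untagged and 62.6, 61.9 and 59.1 tagged, and the enrichment was 0.82 (SE 0.10, edgeR adjusted p 1.38e-07). Neither pair of IP groups overlapped.

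Tsc2 (ENSMUSG00000002496, chr17:24595816-24632676), the subunit with GTPase-activating function towards Rheb, had IPs of 101, 112 and 113 CPM in untagged and 61.5, 79.8 and 74.6 in tagged cells of experiment 1. Its untagged inputs were 126, 119 and 124 and its tagged inputs 119, 79.5 and 106, and the tagged IPs lay below every untagged library. The difference of -0.32 (SE 0.16, edgeR adjusted p 0.0928) did not pass. In experiment 2 the value was -0.08 (SE 0.10, edgeR adjusted p 0.617), with IPs of 99.2 to 105 CPM untagged and 82.7 to 97.1 tagged. Mtor (ENSMUSG00000028991, chr4:148448582-148557685) was alike in sign. Its IPs of experiment 1 held 88.6, 72.8 and 76.9 CPM untagged and 38.4, 47.0 and 52.6 tagged, over untagged inputs of 109, 116 and 113 and tagged inputs of 104, 63.2 and 90.8. The tagged input replicate 2 of experiment 1 was the lowest tagged input for both genes, and leaving it out put both past the threshold as lower, Tsc2 at -0.41 (edgeR adjusted p 0.0107) and Mtor at -0.52 (edgeR adjusted p 0.00451). The full data gave Mtor -0.39 (SE 0.18, edgeR adjusted p 0.0711) in experiment 1 and -0.32 (SE 0.18, edgeR adjusted p 0.193) in experiment 2. Leaving out tagged IP replicate 2 (Tsc2, -0.40) or 3 (Mtor, -0.50) of experiment 1, or tagged IP replicate 3 of experiment 2 (Mtor, -0.46), had the same effect. From IP libraries alone both were lower in experiment 1, Tsc2 at -0.60 (edgeR adjusted p 6.28e-05) and Mtor at -0.79 (edgeR adjusted p 1.42e-05). In experiment 2 Mtor was at -0.26 (edgeR adjusted p 0.0952) in that setting and did not pass. The 8 of 9 genes called there include Tsc2, beside 44.8% of all genes, and the tagged IPs of Tsc2 all lay below the untagged ones. With library size alone Mtor was also past the threshold in experiment 2, at -0.52 (edgeR adjusted p 0.0336).

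Both FoxO transcripts were enriched. Foxo1 (ENSMUSG00000044167, chr3:52268337-52350109) held 42.8, 36.8 and 35.4 CPM in untagged and 86.2, 87.2 and 87.7 in tagged IPs of experiment 1, and 45.1, 49.9 and 48.1 untagged and 71.0, 66.8 and 62.0 tagged in experiment 2. The IP groups were separate in both, and tagged inputs ran from 34.9 to 43.7 CPM in experiment 1 and from 45.7 to 47.8 in experiment 2. Enrichment was 1.20 (SE 0.15, edgeR adjusted p 2.97e-07) and 0.63 (SE 0.09, edgeR adjusted p 2.86e-06). Foxo3 (ENSMUSG00000048756, chr10:42181845-42276695) held 54.6, 51.2 and 49.6 CPM in untagged and 86.8, 104 and 116 in tagged IPs of experiment 1, and 69.8, 74.4 and 73.5 untagged and 111, 101 and 98.5 tagged in experiment 2. Its tagged inputs ran from 45.9 to 59.3 and from 77.0 to 80.9 CPM. Its IP groups were separate too, with enrichments of 1.22 (SE 0.15, edgeR adjusted p 2.03e-07) and 0.60 (SE 0.09, edgeR adjusted p 7.43e-06). With library size alone, which moved the median of all genes from -0.03 to -0.24 in experiment 2, the enrichments there were 0.42 for Foxo1 and 0.39 for Foxo3, still past the threshold.

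**Figure D2:**
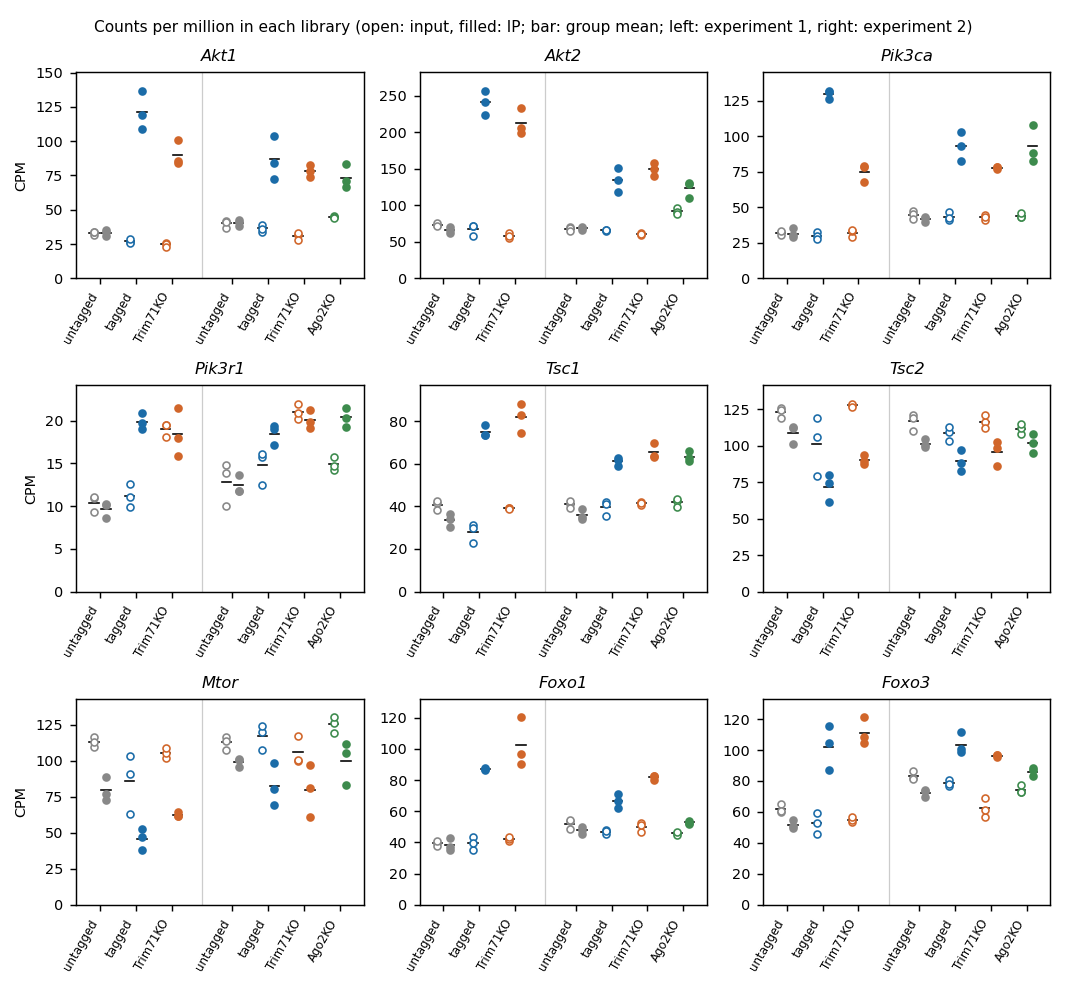
Level of each of the 9 genes in every library in CPM (vertical axis, from 0), with input as open and IP as filled points, bars at group means, and experiment 1 to the left and experiment 2 to the right of the grey line in each panel. Tagged IP points of Akt1, Akt2 and Pik3ca lie above all untagged points, while those of Mtor lie below its untagged inputs in both experiments.

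The enrichments were smaller in experiment 2. Fitted jointly over both experiments, the difference in tag-specific enrichment (experiment 2 minus experiment 1) passed the threshold for the same 7 genes that were enriched in experiment 1, all lower in experiment 2, beside 28.5% of all genes called in either direction. Of the 18620 genes in that fit, 3227 were lower and 2076 higher. Akt2 differed by -1.09 (SE 0.17, edgeR adjusted p 2.05e-05), Pik3ca by -1.04 (SE 0.18, edgeR adjusted p 8.34e-05) and Akt1 by -1.03 (SE 0.21, edgeR adjusted p 0.000398). The members' median difference was -0.72 and that over all genes -0.05. Pik3r1 differed by -0.67 (SE 0.24, edgeR adjusted p 0.0349), a call that was lost without any 1 of 10 of the 24 libraries, among them experiment 1 tagged input replicate 3 (-0.50, edgeR adjusted p 0.125, the highest of the 10). The others were experiment 1 untagged input 2 and 3, untagged IP 2 and tagged IP 3, and experiment 2 untagged input 1, tagged input 1 and 3, untagged IP 3 and tagged IP 2. The untagged IPs with the high Bcar1 share belong to experiment 1 alone. Fitted IP over input in untagged cells of experiments 1 and 2 was 1.00-fold and 1.01-fold for Akt1. It was 0.985-fold and 0.927-fold for Pik3ca and 0.902-fold and 1.02-fold for Akt2. In tagged cells it was 4.48-fold and 2.39-fold for Akt1, 4.34-fold and 2.14-fold for Pik3ca and 3.59-fold and 2.04-fold for Akt2. What made the enrichments differ was not tested.

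Ranked by CPM per kilobase of the counted gene length, the order of the 9 genes differed between input and IP. In tagged inputs of experiment 1 the order was Tsc2 (10.5 ± 2.08 CPM per kb), Akt2 (9.40 ± 1.04), Mtor (8.49 ± 2.04), Foxo3 (6.95 ± 0.880), Akt1 (6.61 ± 0.339), Foxo1 (4.54 ± 0.506), Pik3ca (3.30 ± 0.259), Tsc1 (2.36 ± 0.369) and Pik3r1 (1.11 ± 0.133). The libraries of the first 5 overlapped from each neighbour to the next, and the last 4 did not overlap with the gene above. In the tagged IPs of that experiment Akt2 (33.8 ± 2.32 CPM per kb) and Akt1 (29.7 ± 3.44) overlapped with each other at the top. Pik3ca (14.3 ± 0.338) and Foxo3 (13.5 ± 1.91) followed and also overlapped. Foxo1 (10.0 ± 0.0890) came next, then Tsc2 (7.48 ± 0.977) and Tsc1 (6.34 ± 0.228), which overlapped, then Mtor (4.55 ± 0.710) and Pik3r1 (1.97 ± 0.0960). In experiment 2, Mtor (11.6 ± 0.850 CPM per kb) and Tsc2 (11.3 ± 0.506) overlapped at the top of the tagged inputs, and Akt1 (21.2 ± 3.83) and Akt2 (18.9 ± 2.37) at the top of the tagged IPs. Pik3r1 was the lowest of the 9 in every one of the 14 groups. The RPKM values deposited by the authors gave each gene the same rank in each group.

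In cells labelled Trim71KO the IP over input ratio was lower for both PI3K subunits in experiment 1, and for none of the 9 genes past the threshold in experiment 2. This comparison asks which of the RNAs need Trim71 for their association with Tnrc6a. In experiment 1 it was lower for 2 of 9 genes, Pik3ca and Pik3r1, and higher for 0 (4 at an unadjusted p under 0.05), where 3.47% of all genes were lower and 0.272% higher. In experiment 2 edgeR called 0 of 9, DESeq2 also called 0, and 4 had an unadjusted p under 0.05. Of all genes, 0.753% were higher and 0.738% lower there, 295 genes together, and 470 with the replicate number as a block, since same-numbered tagged and Trim71KO libraries of that experiment deviated together. The members' medians were -0.01 and 0.09, beside -0.04 and 0.01 over all genes.

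Pik3ca differed in the IP itself. Trim71KO IPs of experiment 1 held 78.7, 78.6 and 67.7 CPM against the 131, 126 and 132 of tagged IPs, with Trim71KO inputs at 28.8, 33.6 and 33.8. The IPs were separate and the inputs overlapped, IP over input went from 4.34-fold to 2.34-fold, and the change was -0.89 (SE 0.13, edgeR adjusted p 0.000132). In experiment 2 the Trim71KO IPs held 78.3, 77.1 and 78.3 CPM, again all below the tagged IPs at 103, 93.0 and 82.4. The change of -0.24 (SE 0.12, edgeR adjusted p 0.353) there did not pass, and its 95% interval ran from -0.48 to 0.01. From IP libraries alone it was -0.25 (edgeR adjusted p 0.0205). The 2 experiments differed by 0.67 (SE 0.18, edgeR adjusted p 0.0936), which did not pass. Without experiment 1 tagged input replicate 1 (0.73), experiment 1 Trim71KO IP replicate 1 (0.71) or experiment 2 tagged IP replicate 1 (0.76) it did.

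For Pik3r1 the inputs separated and the IPs overlapped. Trim71KO IPs of experiment 1 held 21.5, 15.9 and 18.02 CPM, overlapping the tagged IPs at 19.7, 19.0 and 20.9, whereas Trim71KO inputs at 19.4, 18.1 and 19.5 were all above the tagged inputs at 12.6, 11.0 and 9.88. The ratio changed by -0.88 (SE 0.17, edgeR adjusted p 0.00279), and IP libraries alone gave -0.11 (edgeR adjusted p 0.524). That call was lost without tagged input replicate 3 (-0.71, edgeR adjusted p 0.0517) or Trim71KO IP replicate 2 (-0.69, edgeR adjusted p 0.0544). In experiment 2 the Trim71KO IPs held 19.2, 21.2 and 19.8 CPM and the inputs 20.2, 21.9 and 20.9, with a change in ratio of -0.39 (SE 0.16, edgeR adjusted p 0.226).

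Ratios of the other 7 genes did not pass in either experiment. From IP libraries alone, 4 of the 9 genes were called in either direction in experiment 1, beside 35.4% of all genes. Pik3ca and Akt1 were among them, both lower, and the directions of the others are not given here. In experiment 2 the 2 called from IP libraries alone were Pik3ca, lower, and Foxo1, higher, beside 33.4% in either direction. Akt1 had 101, 85.3 and 84.3 CPM in Trim71KO IPs of experiment 1, all below the tagged IPs, and a change in ratio of -0.29 (SE 0.14, edgeR adjusted p 0.320), against -0.43 (edgeR adjusted p 0.00111) from IP libraries alone. In experiment 2 it had 82.3, 78.0 and 73.7 CPM, which overlapped the tagged IPs, and a change of 0.09 (SE 0.14, edgeR adjusted p 0.834) with a 95% interval from -0.20 to 0.38. Akt2 gave 0.01 (SE 0.13, edgeR adjusted p 0.978) and 0.27 (SE 0.11, edgeR adjusted p 0.214), from Trim71KO IPs at 233, 206 and 198 CPM in experiment 1 and 159, 149 and 140.1 in experiment 2. Tsc1 gave -0.36 (SE 0.14, edgeR adjusted p 0.212) in experiment 1, with ratios that did not overlap, and 0.03 (SE 0.10, edgeR adjusted p 0.917) in experiment 2. Foxo1 had Trim71KO IPs of 120.2, 96.8 and 90.6 CPM in experiment 1 and 82.4, 79.9 and 82.7 in experiment 2, all above the tagged IPs of the same experiment, with changes in ratio of 0.14 and 0.20 (SE 0.09, edgeR adjusted p 0.274). IP libraries alone gave 0.29 (edgeR adjusted p 0.000650) for Foxo1 in experiment 2. Changes in ratio of Tsc2, Mtor and Foxo3 stayed between -0.01 and 0.23 in both experiments. In experiment 1 the Trim71KO IPs of Tsc2, at 87.6 to 93.6 CPM, all lay above the tagged IPs at 61.5 to 79.8. Those of Mtor did too, at 61.5 to 64.5 against 38.4 to 52.6. Mean inputs went from 101 to 128 CPM for Tsc2 and from 85.8 to 105 for Mtor, beside untagged means of 123 and 113. By edgeR the experiments differed in the change in ratio for 0 of 9 genes (3 at an unadjusted p under 0.05), beside 0.0967% of all genes.

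**Figure D3:**
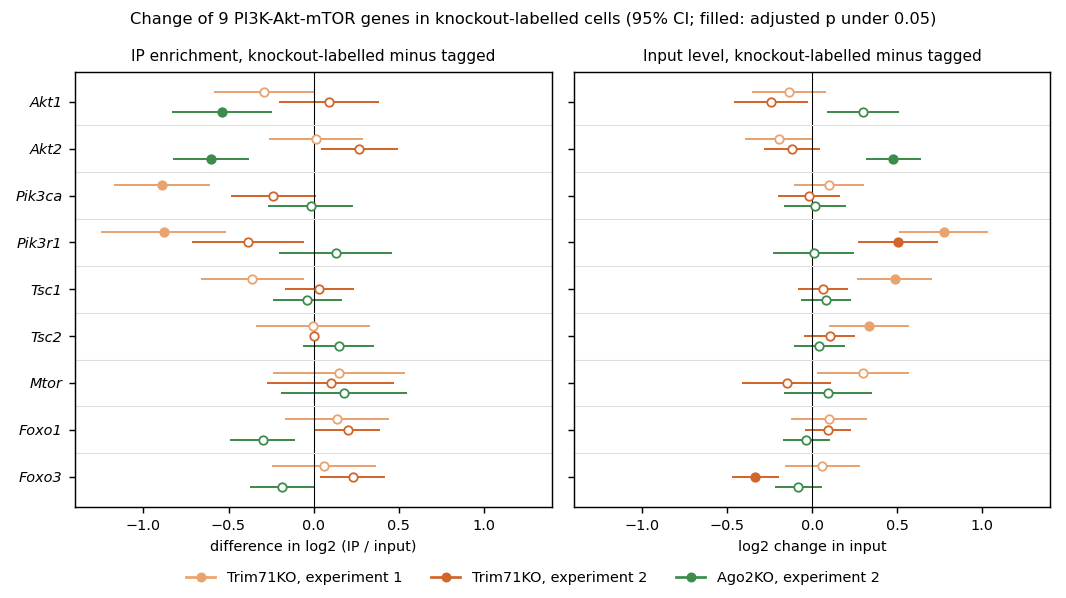
Log2 change of the 9 genes in Trim71KO and Ago2KO cells against tagged cells (horizontal axis), for the IP over input ratio at left and for the input level at right, with 95% intervals and filled points where the edgeR adjusted p was under 0.05. The interval of Tsc2 for Trim71KO in experiment 2 is not drawn, since its change was too near 0 to give an SE. In the left panel Pik3ca and Pik3r1 are filled for Trim71KO in experiment 1, and Akt1 and Akt2 for Ago2KO.

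In cells labelled Ago2KO the ratio was lower for both Akt kinases, and the PI3K subunits did not pass the threshold. The comparison asks which associations with Tnrc6a need this Argonaute. Of the 9 genes, 2 were lower, Akt1 and Akt2, and 0 higher (3 at an unadjusted p under 0.05), against 3.77% of all genes lower and 0.384% higher. The members' median was -0.04 and that of all genes 0.00. Akt2 held 130.5, 129 and 110.2 CPM in Ago2KO IPs against 152, 134 and 118 in tagged IPs, and its inputs were 95.6, 91.4 and 88.7 against 66.3, 64.9 and 66.8. The inputs separated and the IPs overlapped, while the ratios of both genotypes did not overlap. IP over input went from 2.04-fold to 1.34-fold, a change of -0.60 (SE 0.11, edgeR adjusted p 0.000643), and IP libraries alone gave -0.13 (edgeR adjusted p 0.279).

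Akt1 held 83.2, 66.4 and 70.7 CPM in Ago2KO IPs against 104, 84.2 and 72.6 in tagged IPs, and 45.4, 44.5 and 44.2 in Ago2KO inputs against 34.0, 38.9 and 36.1 in tagged inputs. Again the inputs separated and the IPs overlapped, and here the ratios overlapped as well. IP over input went from 2.39-fold to 1.64-fold, a change of -0.54 (SE 0.14, edgeR adjusted p 0.0213), with -0.24 (edgeR adjusted p 0.0937) from IP libraries alone. This call was lost when the fit held only the groups compared (-0.56, edgeR adjusted p 0.0990). It was also lost without tagged input replicate 1 (-0.51) or 3 (-0.54), Ago2KO input replicate 1 (-0.55), tagged IP replicate 1 (-0.40), or Ago2KO IP replicate 2 (-0.47) or 3 (-0.53). The IP over input ratio of this reported miR-290 family target was 1.64-fold in Ago2KO cells beside 1.01-fold in untagged cells.

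The FoxO transcripts were lower in Ago2KO IPs, over inputs that overlapped with those of tagged cells. Foxo1 held 52.0, 52.5 and 54.0 CPM in Ago2KO IPs against 71.0, 66.8 and 62.0 in tagged IPs, with Ago2KO inputs at 46.1, 44.9 and 46.7 and tagged inputs at 47.8, 45.7 and 47.3. The IPs and the ratios separated and the inputs overlapped. The change in ratio, -0.30 (SE 0.09, edgeR adjusted p 0.0581), missed the threshold, and it was past it under RLE size factors (-0.32, edgeR adjusted p 0.0496), without the filter on low counts (-0.32), in DESeq2 (-0.31), with IP and input paired as blocks (-0.30) and without tagged IP replicate 3 (-0.38). Foxo3 held 86.8, 88.1 and 83.4 CPM against 111, 101 and 98.5 in the IPs, which also separated, with a change in ratio of -0.18 (SE 0.09, edgeR adjusted p 0.375). From IP libraries alone the changes were -0.33 (edgeR adjusted p 0.000425) for Foxo1 and -0.27 (edgeR adjusted p 0.00418) for Foxo3. For Pik3ca the change was -0.02, with a 95% interval from -0.26 to 0.23, and Ago2KO IPs at 108, 82.9 and 88.0 CPM overlapped the tagged ones. Pik3r1 (0.13), Tsc1 (-0.04), Tsc2 (0.15) and Mtor (0.18) did not pass.

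The knockout-labelled cells were also set against each other directly, in experiment 2. The IP over input ratio was higher in Trim71KO than in Ago2KO cells for 4 of the 9 genes and lower for 1 (5 at an unadjusted p under 0.05), beside 8.94% of all genes higher and 2.86% lower. The genes that were higher are both Akt kinases and both FoxO factors, and the median was 0.07 over the 9 genes and -0.01 over all genes. Akt2 differed by 0.87 (SE 0.11, edgeR adjusted p 2.11e-06), Akt1 by 0.63 (SE 0.14, edgeR adjusted p 0.00296), Foxo1 by 0.50 (SE 0.09, edgeR adjusted p 0.000301) and Foxo3 by 0.41 (SE 0.09, edgeR adjusted p 0.00256), with separate ratios for each. From IP libraries alone Akt1 differed by 0.09 (edgeR adjusted p 0.519), Akt2 by 0.28 (edgeR adjusted p 0.00448) and Foxo3 by 0.16 (edgeR adjusted p 0.0482). The inputs of these 3 were lower in Trim71KO than in Ago2KO cells. Foxo1 kept its call from IP libraries alone, with 79.9 to 82.7 CPM in Trim71KO IPs and 52.0 to 54.0 in Ago2KO IPs. In that setting 5 of the 9 genes were called in either direction, beside 37.6% of all genes. Pik3r1 was lower, at -0.52 (SE 0.16, edgeR adjusted p 0.0293). That call was lost without Trim71KO input replicate 2 (-0.49), Ago2KO input replicate 1 (-0.49) or 3 (-0.51), or Ago2KO IP replicate 2 (-0.52), and IP libraries alone gave -0.02 (edgeR adjusted p 0.899). Pik3ca differed by -0.22 (SE 0.12, edgeR adjusted p 0.271), which did not pass, with -0.25 (edgeR adjusted p 0.0164) from IP libraries alone, and Tsc1, Tsc2 and Mtor lay between -0.15 and 0.07.

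Input levels were compared on their own, since the ratios above divide by them. Between tagged and untagged cells, 2 of 9 genes were lower and 0 higher in experiment 1 (5 at an unadjusted p under 0.05), where 4.87% of all genes were lower and 5.69% higher. In experiment 2 edgeR called 0 of 9 and DESeq2 0, with 1 at an unadjusted p under 0.05, against 0.581% lower and 0.809% higher of all genes. Medians over the 9 genes were -0.23 and -0.05. The 2 genes were Tsc1, at -0.54 (SE 0.10, edgeR adjusted p 0.00171), and Mtor, at -0.39 (SE 0.13, edgeR adjusted p 0.0488). The call for Mtor was lost under RLE size factors (-0.37), with only the groups compared (-0.40), and without untagged input replicate 1 (-0.40), 2 (-0.35) or 3 (-0.38) or tagged input replicate 2 (-0.21) or 3 (-0.41).

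In Trim71KO inputs Pik3r1 rose in both experiments. Of the 9 genes, 3 were higher and 0 lower in experiment 1 (4 at an unadjusted p under 0.05), beside 16.5% and 17.4% of all genes. In experiment 2, 1 was higher and 1 lower (3 at an unadjusted p under 0.05), beside 13.5% and 13.7%. Medians over the 9 genes were 0.10 and -0.02, and over all genes -0.01 in both. Pik3r1 went from 11.1 ± 1.34 to 19.0 ± 0.797 CPM in experiment 1, a change of 0.77 (SE 0.12, edgeR adjusted p 4.36e-05), and from 14.8 ± 2.04 to 21.0 ± 0.877 in experiment 2, a change of 0.50 (SE 0.11, edgeR adjusted p 0.00107). Its tagged and Trim71KO inputs did not overlap in either experiment.

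Tsc1 and Tsc2 were higher in Trim71KO than in tagged inputs of experiment 1, by 0.48 (SE 0.10, edgeR adjusted p 0.000895) and 0.33 (SE 0.11, edgeR adjusted p 0.0230). Tagged inputs were the low group for both genes. Tsc1 averaged 28.0 CPM there, while Trim71KO inputs, at 39.1, lay near the untagged mean of 40.8. Tsc2 averaged 101 CPM there, beside 128 with the knockout label and 123 without the tag. Trim71KO against untagged inputs was not tested. The call for Tsc2 was lost without tagged input replicate 2 (0.19), Trim71KO input replicate 2 (0.32) or Trim71KO input replicate 3 (0.33). The changes from tagged to Trim71KO inputs in experiment 2 were 0.07 (SE 0.07, edgeR adjusted p 0.526) for Tsc1 and 0.10 (SE 0.07, edgeR adjusted p 0.298) for Tsc2. Foxo3 fell in experiment 2, from 80.9, 77.0 and 78.0 to 57.0, 61.1 and 69.1 CPM with no overlap, a change of -0.33 (SE 0.06, edgeR adjusted p 0.000287), and had 0.06 (SE 0.10, edgeR adjusted p 0.693) in experiment 1. Akt1 inputs of experiment 2 held 31.3, 33.0 and 27.8 CPM in Trim71KO cells, all below the tagged ones, with a change of -0.24 (SE 0.10, edgeR adjusted p 0.0813) that did not pass. With the replicate number as a block it was -0.24 and past the threshold (edgeR adjusted p 0.0398), as it was with library size alone and with only the groups compared.

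The change in Trim71KO inputs differed between the experiments for 2 of 9 genes, beside 22.8% of all genes called in either direction. Of the 18620 genes in that fit, 1975 were lower and 2279 higher. Tsc1 differed by -0.42 (SE 0.12, edgeR adjusted p 0.00857) and Foxo3 by -0.40 (SE 0.12, edgeR adjusted p 0.0129), both lower in experiment 2. The call for Tsc1 was lost without experiment 1 tagged input replicate 2 (-0.30), and that for Foxo3 without the same library (-0.31) or experiment 2 Trim71KO input replicate 1 (-0.34). Leaving out experiment 1 tagged input replicate 1 instead put Mtor (-0.60) and Tsc2 (-0.36) past the threshold too.

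In Ago2KO inputs Akt2 rose, by 0.48 (SE 0.08, edgeR adjusted p 0.000146), from 66.0 ± 0.978 to 91.9 ± 3.46 CPM with no overlap. It was the 1 gene of 9 called higher, with 0 lower (2 at an unadjusted p under 0.05), where 4.38% of all genes were higher and 2.57% lower. Akt1 went from 36.3 ± 2.41 to 44.7 ± 0.617 CPM, also with no overlap, by 0.30 (SE 0.10, edgeR adjusted p 0.0719), which did not pass. It passed with only the groups compared (0.29, edgeR adjusted p 0.00398). Trim71KO inputs were lower than Ago2KO inputs for Akt2 at -0.60 (SE 0.08, edgeR adjusted p 1.20e-06), Akt1 at -0.54 (SE 0.10, edgeR adjusted p 0.000194) and Foxo3 at -0.25 (SE 0.06, edgeR adjusted p 0.00401), and higher for Pik3r1 at 0.49 (SE 0.11, edgeR adjusted p 0.00122). That is 1 higher and 3 lower of 9 (4 at an unadjusted p under 0.05), beside 13.2% higher and 15.1% lower of all genes. The call for Foxo3 was lost without Trim71KO input replicate 1 (-0.18).

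Markers of other cell types also moved with the genotype in input RNA. The primitive endoderm list (Gata6, Gata4, Sox17, Pdgfra, Sox7, Foxa2; 6 of 6 in the table of experiment 1 and 5 of 6 in experiment 2, without Foxa2) summed to 40.8 to 49.4 CPM in tagged and 9.51 to 10.9 in Trim71KO inputs of experiment 1. In experiment 2 it summed to 15.4 to 16.6 CPM in tagged, 6.10 to 8.02 in Trim71KO and 8.69 to 9.30 in Ago2KO inputs. Of that list Sox7 did not fall in Trim71KO inputs of experiment 2, at 1.68 ± 0.615 CPM in tagged and 1.75 ± 0.376 in Trim71KO. The fibroblast list (Col1a1 and Thy1, 2 of its 6 genes, found without Col1a2, Col3a1, Dcn and Lum) summed to 22.6 to 24.5 CPM in tagged and 58.0 to 61.8 in Trim71KO inputs of experiment 1, and to 34.2 to 35.8, 49.5 to 51.9 and, in Ago2KO, 29.9 to 35.1 in experiment 2. Thy1 makes up most of that sum, at 21.8 ± 1.56 CPM in tagged and 55.8 ± 1.77 in Trim71KO inputs of experiment 1 and 29.9 ± 0.889 and 46.6 ± 1.56 in experiment 2. Col1a1 was at 2.10 ± 0.680 and 4.28 ± 0.310 CPM in experiment 1 and, with the opposite order, at 5.06 ± 0.481 and 3.96 ± 0.819 in experiment 2. The neural progenitor list (4 of 5 genes in the tables, among them Pax6, Sox1 and Nes) summed to 17.8 to 21.0 CPM in tagged and 12.5 to 15.6 in Trim71KO inputs of experiment 1, and to 22.6 to 24.4, 12.7 to 17.5 and, in Ago2KO, 25.3 to 27.7 in experiment 2. Sox1 went from 12.2 ± 0.579 to 6.20 ± 0.183 CPM and from 14.9 ± 0.905 to 7.89 ± 1.25, whereas Nes was at 6.22 ± 1.57 and 6.55 ± 1.05 CPM in experiment 1 and 7.41 ± 0.797 and 6.61 ± 1.26 in experiment 2. The trophoblast list (Eomes, 1 of 4 genes) lay between 3.26 and 7.43 CPM in inputs of experiment 1 and between 9.28 and 13.7 in experiment 2. It held 3.92 to 4.19 CPM in tagged and 5.98 to 7.43 in Trim71KO inputs of experiment 1. In experiment 2 it held 9.28 to 10.8 in tagged, 11.4 to 13.7 in Trim71KO and 10.1 to 10.6 in Ago2KO inputs. The mesoderm list (2 of 4 genes in experiment 1 and 3 of 4 in experiment 2) lay at no more than 2.45 CPM. These are RNA levels, and whether cells of these types were present or had a part in the input values above was not tested.

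The rest of the pathway was followed through a list of 50 other genes, of which 48 were in both tables (Pik3cg and Inpp4b were not used here). In tag-specific enrichment 23 of the 48 were higher and 9 lower in experiment 1, where 28.1% of all genes were higher and 28.8% lower, and the median was 0.33 beside -0.10 over all genes. In experiment 2, 19 were higher and 2 lower, beside 18.9% and 8.77% of all genes, and the median was 0.15 beside -0.03. All 19 and both lower genes of experiment 2 were also called in the same direction in experiment 1, which is 82.6% of the 23 and 22.2% of the 9. Over all genes, those called in both were 66.6% of the higher and 25.8% of the lower genes of experiment 1, and 93.9% and 80.6% of those of experiment 2. The highest in both were Phlpp2, a phosphatase that removes an activating phosphate from Akt, at 3.96 and 2.53, Rictor, the defining subunit of mTOR complex 2, at 3.26 and 2.28, and Sesn2, a stress-induced inhibitor of mTOR complex 1, at 3.16 and 2.12. All 6 had an edgeR adjusted p of at most 7.80e-10. Their values lie above those of all 9 members, of which Akt1 was highest.

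The roles hold few genes each, and their counts stand beside the same shares of all genes, 28.1% higher and 28.8% lower in experiment 1 and 18.9% and 8.77% in experiment 2. Of the genes upstream of mTOR complex 1, 7 of 9 were higher and 2 lower in experiment 1, and 6 were higher and 1 lower in experiment 2. Of the phosphatases 4 of 5 were higher in experiment 1 and 3 of 5 in experiment 2. Akt-level kinases were higher for 4 of 5 in both experiments. Among other PI3K subunits 3 of 7 were higher and 2 lower in experiment 1, the latter being Pik3c3 (-0.99) and Pik3r4 (-0.83), the class III kinase and its regulatory partner, and 3 were higher and 0 lower in experiment 2. Of the mTOR complex subunits 1 of 6 was higher in both experiments, and 2 were lower in experiment 1. Of the 7 mTOR complex 1 outputs 2 were higher and 3 lower in experiment 1, and 1 higher and 1 lower in experiment 2. Receptors and adaptors were higher for 2 of 7 in experiment 1 and 1 of 7 in experiment 2, with 0 lower. Of the 2 other FoxO factors, Foxo4 and Foxo6, 0 were called in either experiment. The ribosomal protein Rps6, an output of the pathway, was lower in both at -1.25 (SE 0.21, edgeR adjusted p 2.46e-05) and -0.28 (SE 0.09, edgeR adjusted p 0.0245), as was the GTPase Rheb, at -0.82 and -0.36 (SE 0.09, edgeR adjusted p 0.00324). The call for Rps6 in experiment 2 was lost without each of 3 libraries in turn (untagged input 2 or 3, tagged input 2, -0.26 to -0.25).

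**Figure D4:**
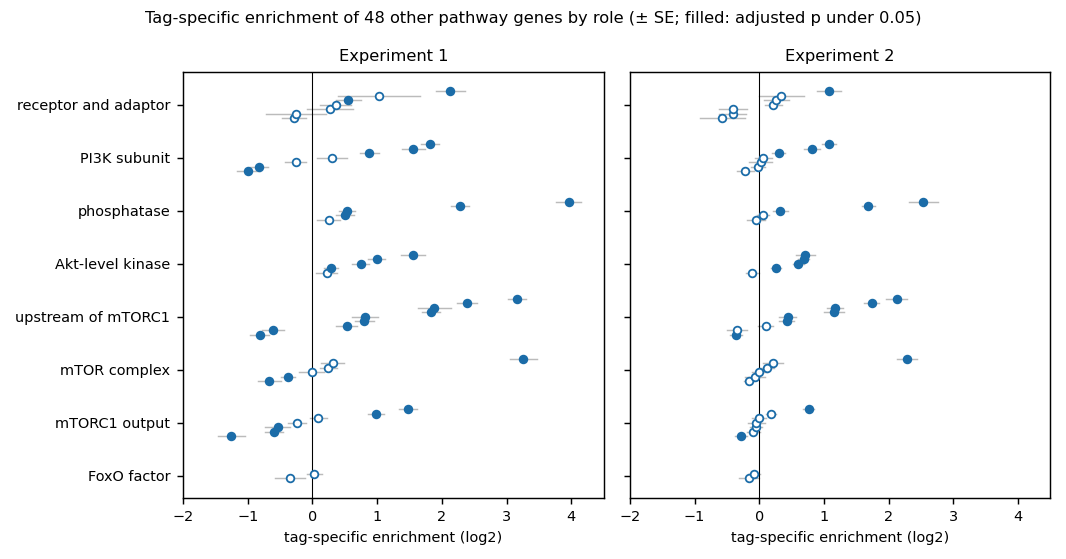
Tag-specific enrichment (horizontal axis, log2) of the 48 other pathway genes grouped by role, with SE bars and filled points where the edgeR adjusted p was under 0.05, for experiment 1 at left and experiment 2 at right. Phlpp2 is the highest point in both panels, at 3.96 and 2.53.

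In Trim71KO cells of experiment 1 the IP over input ratio of Rictor was at -0.83 (SE 0.20, edgeR adjusted p 0.0175) and Akt1s1, which encodes an inhibitory subunit of mTOR complex 1, at -0.64 (SE 0.13, edgeR adjusted p 0.00339), 2 lower and 0 higher of 48 beside 3.47% and 0.272% of all genes. In experiment 2 the catalytic subunits Pik3cb, at 0.50 (SE 0.10, edgeR adjusted p 0.0127), and Pik3cd, at 0.48 (SE 0.10, edgeR adjusted p 0.0151), were higher and 0 were lower, beside 0.753% and 0.738%. In Ago2KO cells 7 of 48 were lower and 0 higher, beside 3.77% and 0.384%. Phlpp2 was at -0.93 (SE 0.21, edgeR adjusted p 0.00744), the AMPK subunit Prkaa1 at -0.82 (SE 0.11, edgeR adjusted p 2.58e-05) and Sesn2 at -0.76 (SE 0.16, edgeR adjusted p 0.00343). Also lower were Kit (-0.67), Stk11 (-0.44) and Gsk3a (-0.43). Trim71KO against Ago2KO ratios were higher for 12 and lower for 2 (of all genes 8.94% and 2.86%), led by Kit (1.18), Phlpp2 (1.16) and Prkaa1 (1.07), with Akt1s1 (-0.76) and Rps6 (-0.30) the lower ones. Medians over the 48 genes were -0.04 and 0.05 for Trim71KO in experiments 1 and 2, -0.01 for Ago2KO and 0.05 for Trim71KO against Ago2KO, and over all genes -0.04, 0.008, 0.003 and -0.01. Without single libraries several of these calls were lost: Rictor (tagged input 2 or 3, Trim71KO input 2 or 3, tagged IP 3, Trim71KO IP 2 or 3, -0.76 to -0.58), Akt1s1 in experiment 1 (tagged input 3, Trim71KO input 2, -0.52 to -0.51), Pik3cb (tagged input 1, tagged IP 3, Trim71KO IP 2, 0.41 to 0.49), Pik3cd (Trim71KO input 1, Trim71KO IP 2 or 3, 0.41 to 0.46) and Rps6 (Trim71KO input 1 or 2, Ago2KO input 1 or 3, Trim71KO IP 2 or 3, Ago2KO IP 3, -0.31 to -0.25). Rictor also lost its call with library size alone (-0.72) and with only the groups compared (-0.85), and Pik3cd (0.48) and Rps6 (-0.27) in the latter. IP libraries alone gave Pik3cd -0.011, Phlpp2 -0.041 and Akt1s1 0.33, the last 2 for Trim71KO against Ago2KO.

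In Trim71KO inputs 15 of 48 were higher and 6 lower in experiment 1, beside 16.5% and 17.4% of all genes, and 8 were higher and 13 lower in experiment 2, beside 13.5% and 13.7%. The medians were 0.09 and -0.02, and over all genes -0.01 in both. In both experiments 6 were higher, namely Deptor, Foxo6, Pdpk1, Sgk1, Tfeb and Ulk1 (40% of the 15 and 75% of the 8), and 3 were lower in both, Foxo4, Rheb and Tbc1d7 (50% of the 6 and 23.1% of the 13). Over all genes, those called in both were 37.8% of the higher and 25.7% of the lower genes of experiment 1, and 44% and 31% of those of experiment 2. Foxo6 was at 2.27 (SE 0.14, edgeR adjusted p 9.08e-11) and 1.02 (SE 0.10, edgeR adjusted p 2.22e-08), Tfeb, a regulator of lysosomal genes, at 1.08 and 0.86, and the Akt-related kinase Sgk1 at 1.03 and 1.26. Inpp5d, a phosphatase, went in opposite directions, at 0.74 (SE 0.10, edgeR adjusted p 4.14e-06) and -0.68 (SE 0.08, edgeR adjusted p 7.34e-07). Phlpp2 (-0.76) and Ddit4 (-0.61) were among the lower genes of experiment 2. Ago2KO inputs were higher for 6 (of all genes 4.38%), led by Tfeb (0.60), Kit (0.57) and Sgk1 (0.35), and lower for 3 (2.57%), Inpp5d (-0.44), Sesn1 (-0.31) and Eif4ebp2 (-0.18). Trim71KO inputs were higher than Ago2KO inputs for 7 (13.2% of all genes), led by Foxo6 (1.22), and lower for 15 (15.1%), among them Phlpp2 (-1.20). Tagged against untagged inputs were higher for 0 and lower for 5 in experiment 1 (of all genes 5.69% and 4.87%), led by Ddit4 (-1.34), Inpp5d (-0.77) and Phlpp2 (-0.62), and higher for 0 and lower for 2 in experiment 2 (0.809% and 0.581%), Sgk1 (-0.48) and Inppl1 (-0.25). Calls lost without single libraries were, in Ago2KO inputs, Kit (tagged input 2, 0.51), Sgk1 (tagged input 1, 2 or 3, Ago2KO input 1 or 2, 0.28 to 0.36), Sesn1 (tagged input 2 or 3, Ago2KO input 2 or 3, -0.32 to -0.29) and Eif4ebp2 (tagged input 1, 2 or 3, Ago2KO input 1, 2 or 3, -0.21 to -0.15), and, in tagged inputs, Phlpp2 (tagged input 2, -0.58) in experiment 1 and Sgk1 (untagged input 2 or 3, tagged input 1, 2 or 3, -0.48 to -0.42) and Inppl1 (untagged input 1, 2 or 3, tagged input 1, 2 or 3, -0.28 to -0.22) in experiment 2. Without the filter on low counts Sgk1 in Ago2KO inputs (0.34, and 0.34 with RLE size factors) and Inppl1 (-0.23, and -0.22 with library size alone) lost their calls as well.

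Across libraries the pattern of Akt1 was shared most closely by Pex19, E2f1, Snx8, Zeb1 and Sfmbt1 among 10292 genes, by Pearson's r of log2 CPM over the 18 libraries of experiment 1 and the 24 of experiment 2. The lower of both r values was 0.985 for Pex19 and 0.981 for Sfmbt1. Of the other members Akt2 came closest (rank 134, r 0.987 and 0.960), then Pik3ca (rank 498), Tsc1 (rank 1233), Foxo3 (rank 1659), Foxo1 (rank 2298) and Pik3r1 (rank 3520). Tsc2 (r -0.81 and -0.82) and Mtor (r -0.85 and -0.71) ran opposite to Akt1. These values are a description, since the points share the split into IP and input libraries.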

How the data were processed

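The authors deposited raw counts of reads for each gene, in 1 table for each of the 2 experiments, with RPKM values and a gene length beside them. Per the file headers, the length column carries the name QuasR. Per the submitters' processing notes, bcl2fastq 2.20 and STAR 2.7.3a were used and the builds GRCm38 and mm10 are named, without a role or order, while the counting tool and annotation are not given in the sources used here. RNA was purified with a Norgen kit and made into libraries with a stranded TruSeq total RNA kit, per the labels' protocols. How the counting treated strand, overlapping genes and near-identical copies is not stated. RPKM, as deposited by the authors, served only to check the order of levels.

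Counts were tested in R 4.3.3 with edgeR 4.0.16 (TMM, filterByExpr, quasi-likelihood F test). Each experiment was fitted as a whole, 1 mean per group, over 18772 or 19778 genes, and both were fitted jointly over 18620 genes for differences between them. P-values were Benjamini-Hochberg adjusted over all genes tested, with a threshold of 0.05. Enrichment is the interaction of genotype with IP against input, and its SE is the estimate over the root of F. Ratios were called separate where the 9 pairings of IP with input libraries of each genotype did not overlap. The script was tested on simulated data. Replicates differed by more than counting noise in all 42 pairs (chi-square per gene 2.87 to 64.1 over genes with at least 50 counts), so each library counted once, and counting error ignores duplicate molecules. Same-numbered libraries deviated together (every r above 0.1) only in experiment 2, between tagged and Trim71KO inputs (0.26 to 0.40), between their IPs (0.25 to 0.38) and between tagged input and IP (0.13 to 0.21). Tagged and Ago2KO libraries fell short of that rule, with r from -0.01 to 0.29 in inputs and from 0.08 to 0.64 in IPs.

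The 9 genes, the 50 other pathway genes and the marker lists were chosen with earlier results of these data known. Named are the 9 genes, Tnrc6a, Trim71 and Ago2, and for each comparison up to 3 listed genes each way with the largest change among those called with a mean log2 CPM of at least 2. Stk11, Gsk3a, Kit, Rheb, Foxo4, Deptor, Pdpk1 and Ulk1, and Inpp5d in Trim71KO inputs of experiment 1, are named beyond that rule where a count or role needed it, after their values were seen. Values of some listed genes are not reported here. Of the Pik3r3 symbol, which 2 entries share, the one with more counts was used. The 5 genes most like Akt1 are those with the highest lower r of both experiments among genes with a mean log2 CPM of at least 3. Alternatives were RLE size factors, library size alone, no filter, DESeq2 1.42.0, only the groups compared, the replicate number as a block within input or IP, same-numbered IP and input paired as blocks, each library left out, and, chosen after seeing the data, IP libraries alone.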

Additional observations from a re-analysis of the deposited data

Results flagged for a closer look

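The tag-specific enrichment of 7 genes differed between the experiments in the joint fit (experiment 2 minus experiment 1, log2, edgeR). Akt2 differed by -1.09 (SE 0.17, edgeR adjusted p 2.05e-05), Pik3ca by -1.04 (SE 0.18, edgeR adjusted p 8.34e-05), Akt1 by -1.03 (SE 0.21, edgeR adjusted p 0.000398) and Tsc1 by -0.99 (SE 0.17, edgeR adjusted p 5.39e-05). Foxo3 differed by -0.72 (SE 0.17, edgeR adjusted p 0.00130), Foxo1 by -0.67 (SE 0.17, edgeR adjusted p 0.00275) and Pik3r1 by -0.67 (SE 0.24, edgeR adjusted p 0.0349). The change in Trim71KO inputs differed for Tsc1 by -0.42 (SE 0.12, edgeR adjusted p 0.00857) and for Foxo3 by -0.40 (SE 0.12, edgeR adjusted p 0.0129). No group here had 4 or more libraries, so single libraries were not screened for standing apart.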

How the results depend on the processing

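Of 135 values of the 9 genes, 43 lay within 1 SE of 0 and were not followed. Of the other 92, 43 were called; 41 of these were called in every planned setting that kept all libraries, and 34 also without each library in turn. Counts of members called that moved by over 1.5 times were, for tagged against untagged inputs of experiment 1, 1 with RLE size factors and 1 with only the groups compared; for Trim71KO inputs of experiment 2, 4 with library size alone; for Ago2KO inputs, 2 with the replicate number as a block and 2 with only the groups compared; and for Ago2-dependent enrichment, 1 with only the groups compared. Smaller moves were 7 for 6 in tag-specific enrichment of experiment 2 (library size alone, both blocks), 3 for 2 in Ago2-dependent enrichment (RLE size factors, no filter, DESeq2, IP and input paired), in tagged inputs of experiment 1 (library size alone), in Trim71KO inputs of experiment 2 (block within input or IP, only the groups compared) and in their difference between experiments (library size alone), and 5 for 4 between Trim71KO and Ago2KO inputs (the same block, only the groups compared). From IP libraries alone, counts were 9 and 8 for tag-specific enrichment in experiments 1 and 2, beside 68% and 44.8% of all genes. They were 4 and 2 for Trim71-dependent enrichment, beside 35.4% and 33.4%, and 5 for Trim71KO against Ago2KO, beside 37.6%. For Ago2-dependent enrichment the count was 2, Foxo1 and Foxo3 and not Akt1 and Akt2, beside 16.4% of all genes. Leaving out 1 library gave 7 to 9 and 6 to 7 members for tag-specific enrichment in experiments 1 and 2, 1 to 2 and 0 for Trim71-dependent, 1 to 3 for Ago2-dependent and 4 to 5 for Trim71KO against Ago2KO enrichment. For inputs it gave 1 to 3 (tagged against untagged, experiment 1), 2 to 4 and 2 (Trim71KO against tagged, experiments 1 and 2), 1 (Ago2KO) and 4 (Trim71KO against Ago2KO). For differences between experiments it gave 6 to 7 (tag), 0 to 1 (Trim71) and 0 to 4 (Trim71KO inputs). Signs turned only from IP libraries alone: Tsc1 in Trim71KO of experiment 1 to 0.12, in Trim71KO of experiment 2 Pik3r1 to 0.12, Foxo3 to -0.10 and Pik3cd to -0.011, and in Trim71KO against Ago2KO Phlpp2 to -0.041 and Akt1s1 to 0.33; the cause was not tested. The replicate block put Akt1 in Ago2KO inputs (0.30) and Mtor between Trim71KO and Ago2KO inputs (-0.24) past the threshold. It did so too for Mtor in tag-specific enrichment of experiment 2 (-0.34). In these comparisons not every same-numbered pair had r above 0.1. The r values ran from -0.01 to 0.29 between tagged and Ago2KO inputs and from 0.03 to 0.30 between Trim71KO and Ago2KO inputs. Between untagged and tagged libraries of experiment 2 they ran from -0.20 to -0.03 in inputs and from -0.25 to 0.15 in IPs. Beyond the values given with the results the block changed no other member's call.

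Counts over all genes moved by over 1.5 times for Trim71-dependent enrichment of experiment 2 (295, against 489 with library size alone, 548 in DESeq2, 470 with the block within input or IP, 522 with IP and input paired and 136 with only the groups compared), for tagged inputs of experiment 2 (275 against 497 with only the groups compared) and for Ago2KO inputs (1376 against 2481). From IP libraries alone they were 8853 against 5479 (tag, experiment 2), 6647 against 703 and 6600 against 295 (Trim71), 3236 against 822 (Ago2) and 7433 against 2334 (Trim71KO against Ago2KO). With library size alone the share of calls that were higher went from 68.4 to 36.5% (tag-specific, experiment 2), from 7.25 to 24.6% and 50.5 to 75.7% (Trim71-dependent, experiments 1 and 2), from 9.25 to 26.1% (Ago2-dependent), from 53.9 to 35.3% (tagged inputs, experiment 1), from 49.6 to 34.6% (Trim71KO inputs, experiment 2), from 63.0 to 51.1% (Ago2KO inputs), from 39.1 to 21.4% (tag difference) and from 53.6 to 31.2% (Trim71KO input difference). RLE size factors took the Trim71-dependent share of experiment 2 to 38.6% and that of the difference from 100 to 84.2%. DESeq2 took that of experiment 1 to 22.4%. In experiment 2 it was 34.8% without the filter and 34.6% with only the groups compared, which also took Trim71KO against Ago2KO from 75.7 to 86.7%. IP libraries alone gave 55.5% (tag-specific, experiment 2), 40.5% (Trim71-dependent, experiment 1), 43.0% (Ago2-dependent) and 53.0% (Trim71KO against Ago2KO).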
